A study of Mus musculus with 34 samples.

Results

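The UDP-glucuronosyltransferases (Ugt1a, Ugt2a, Ugt2b and Ugt3a genes) and the cytosolic sulfotransferases (Sult genes) were examined in liver tumors and livers of mice that carry a MYC transgene. The members were all protein-coding rows whose symbol begins with Ugt1, Ugt2 or Ugt3, or with Sult and a digit (the rule itself uses names, not measured values). The table of mixed-strain tumors held 40 members (21 Ugt and 19 Sult) among 46528 genes, the table of FVB tumors 23 (16 Ugt and 7 Sult) among 16140, and the table of Rag1-/- livers 25 (19 Ugt and 6 Sult) among 14074. Across the 3 tables there were 40 different members and 34 libraries.

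All animals carried LAP-tTA; TRE-MYC, in which a liver-restricted activator drives MYC once doxycycline is withdrawn. The gene under study, Arid1a, codes for the DNA-contacting part of a SWI/SNF chromatin remodeler. WT tumors had floxed Arid1a and no Cre. Het tumors (fl/+; Alb-cre) and Homo tumors (fl/fl; Alb-cre) had Cre from the albumin promoter, which acts in hepatocytes, so the Arid1a genotype and the presence of Cre cannot be told apart. The mixed-strain set (C57/B6, 129 and FVB) had 8 WT and 8 Het tumors from mice of about 90 days. The FVB set had 4 tumors per genotype, with mice of about 55 days for WT, 70 days for Het and 100 days for Homo, so that age moved with genotype. Tumors were collected at death. The livers gave 3 ad-Cre and 3 ad-ARID1A libraries from mice of about 42 days, which were Rag1-/-, FVB, WT for Arid1a and 14 days past injection of an adenovirus that carried Cre or human ARID1A. Only the control livers therefore received viral Cre.

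Glucuronidation and sulfation are the main ways by which the liver makes steroids, bilirubin, bile acids and drugs water-soluble. The Ugt enzymes sit in the endoplasmic reticulum and take glucuronic acid from UDP-glucuronate, while the Sult enzymes sit in the cytosol and take sulfate from PAPS. The conjugates leave the hepatocyte through export pumps such as Abcc2 and Abcc3. Ugt1a1 conjugates bilirubin, Ugt1a6 enzymes conjugate small phenols, Ugt2b enzymes conjugate steroids and many drugs, Sult1a1 sulfates phenols, Sult1d1 sulfates catecholamines, and Sult2a enzymes sulfate bile acids and steroids. Many of these genes are expressed highly in mature hepatocytes, with nuclear receptors, AhR and HNF1 among their known activators.

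The Ugt1a genes are not separate transcription units in the usual sense. In GENCODE M21 on GRCm38 they occupy chr1:88055388-88220002 on the plus strand, where each gene has its own first exon and all 9 measured genes share 4 downstream exon blocks of 1311 bases (chr1:88215044-88215175, chr1:88215795-88215882, chr1:88216138-88216357 and chr1:88218127-88218997). Between 50.3% (Ugt1a6a) and 60.6% (Ugt1a6b) of a gene's exon bases also belonged to other Ugt1a genes. How the authors' counting treated reads in the shared exons has no record among the sources used here, so differences between the Ugt1a genes within a library are uncertain. For the same reason, counts of Ugt1a genes that differ in the same direction may not stand for independent results. The antisense gene Gm20528 also covers part of the exon bases of each Ugt1a gene, from 9.14% (Ugt1a6a) to 41.5% (Ugt1a1). It covers 17.7% for Ugt1a8 and 17.9% for Ugt1a5. Reads of such a pair cannot be told apart without strand.

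The promoters of the members that the results turn on are shown here as the 250 bases before the RefSeq transcript start on GRCm38.p6, each 5′ to 3′ on the gene's strand. Capitals mark 3 short motifs on either strand, AGGTCA (a nuclear receptor core), GCGTG (an AhR core) and GTTAAT (an HNF1 core). The first 3 promoters belong to Ugt1a genes, each with a first exon and start of its own (Ugt1a8, chr1:88087578-88087827, plus strand; Ugt1a5, chr1:88165762-88166011, plus strand; Ugt1a1, chr1:88211709-88211958, plus strand). The other 4 belong to Ugt2b genes with unlike levels in tumors (Ugt2b35, chr5:87000610-87000859, plus strand; Ugt2b36, chr5:87092556-87092805, minus strand; Ugt2b5, chr5:87140341-87140590, minus strand; Ugt2b34, chr5:86906938-86907187, minus strand).
Ugt1a8: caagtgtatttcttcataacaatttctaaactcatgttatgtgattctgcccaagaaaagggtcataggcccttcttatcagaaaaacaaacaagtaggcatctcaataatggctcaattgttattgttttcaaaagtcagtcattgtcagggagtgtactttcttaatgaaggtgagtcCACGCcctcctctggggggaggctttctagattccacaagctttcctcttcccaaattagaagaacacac
Ugt1a5: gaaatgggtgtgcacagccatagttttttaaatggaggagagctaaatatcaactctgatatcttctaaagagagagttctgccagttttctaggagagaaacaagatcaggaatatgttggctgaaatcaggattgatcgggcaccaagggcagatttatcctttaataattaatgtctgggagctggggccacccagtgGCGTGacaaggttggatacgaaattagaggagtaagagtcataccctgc
Ugt1a1: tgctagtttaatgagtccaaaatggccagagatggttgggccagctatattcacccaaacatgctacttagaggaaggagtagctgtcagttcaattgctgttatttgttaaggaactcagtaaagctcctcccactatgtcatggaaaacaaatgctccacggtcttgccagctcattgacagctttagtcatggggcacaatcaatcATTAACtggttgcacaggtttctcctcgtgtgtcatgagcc
Ugt2b35: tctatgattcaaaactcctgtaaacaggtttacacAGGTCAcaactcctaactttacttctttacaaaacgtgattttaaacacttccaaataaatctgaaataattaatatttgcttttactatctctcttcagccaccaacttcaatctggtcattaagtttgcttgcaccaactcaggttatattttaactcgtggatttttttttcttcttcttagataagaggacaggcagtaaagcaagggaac
Ugt2b36: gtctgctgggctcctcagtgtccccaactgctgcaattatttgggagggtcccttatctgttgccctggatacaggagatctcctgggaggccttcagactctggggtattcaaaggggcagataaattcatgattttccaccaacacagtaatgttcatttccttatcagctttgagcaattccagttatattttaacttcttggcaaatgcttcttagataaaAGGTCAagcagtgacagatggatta
Ugt2b5: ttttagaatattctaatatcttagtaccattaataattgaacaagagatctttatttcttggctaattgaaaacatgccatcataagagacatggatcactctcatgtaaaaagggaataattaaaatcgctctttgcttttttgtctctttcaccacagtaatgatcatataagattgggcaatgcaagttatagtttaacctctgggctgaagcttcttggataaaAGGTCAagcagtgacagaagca
Ugt2b34: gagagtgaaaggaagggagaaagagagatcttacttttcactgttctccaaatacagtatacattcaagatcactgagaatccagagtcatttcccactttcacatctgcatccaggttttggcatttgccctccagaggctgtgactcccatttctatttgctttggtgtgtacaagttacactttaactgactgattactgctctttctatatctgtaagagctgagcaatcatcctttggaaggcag
The motif began 22 bases before the start in Ugt2b5 and 25 bases before it in Ugt2b36, with the same letters AGGTCA, and 215 bases before it in Ugt2b35. Ugt2b34 held none of the 3 motifs in this stretch. The core GCGTG, or its reverse complement CACGC, began 49 bases before the start in Ugt1a5 and 70 bases before it in Ugt1a8, and ATTAAC began 41 bases before it in Ugt1a1.

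RefSeq promoters, from 250 bases before to 50 after the start, were found for 34 of the 40 members, 37 promoters in all. GTTAAT was in 12 of the 37 against 7.10% of 32851 promoters of the same length, and 4 of the 8 Ugt1a promoters had it. AGGTCA was in 10 of the 37 against 16.3%, and 5 of those 10 were Ugt2b promoters (Ugt2b5, Ugt2b35, Ugt2b36, Ugt2b37 and Ugt2b38). GCGTG was in 6 of the 37 against 32.4%, among them Ugt1a5 and Ugt1a8 and no Ugt2 gene. TATAAA, the TATA box, was in 9 against 13.6%, CAAAGTCCA, an HNF4 site, in 1 against 0.475%, and CACGTG, the E-box that MYC binds, in 0 against 7.15%. Both strands were searched, and no motif is contained in another. The windows of the Ugt2b genes were 51.7% to 91% identical (median 56% of the window length over 21 pairs), and those of the Ugt1a genes 50% to 76.3% (median 53.7% over 28 pairs). No unrelated promoters were aligned, so these values have no baseline.

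The mixed-strain libraries held 2.276 to 5.282 M reads, with 4.011 as the median. For FVB tumors it was 6.634 to 12.022 M reads (9.417), and for livers 8.716 to 10.61 M reads (9.116). Arid1a itself was at 8.48 ± 0.21 (log2 scale, SD, n = 8) in mixed-strain WT tumors and 8.07 ± 0.13 in Het tumors, a difference that missed the threshold (limma, adjusted p = 0.083). In FVB tumors it was 0.32 lower in Het and 0.35 lower in Homo on the log2 scale (limma, adjusted p = 0.424 and 0.515). The mouse Arid1a row was 0.15 higher in ad-ARID1A livers (adjusted p = 0.619), and it does not check a human virus.

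**Figure D1:**
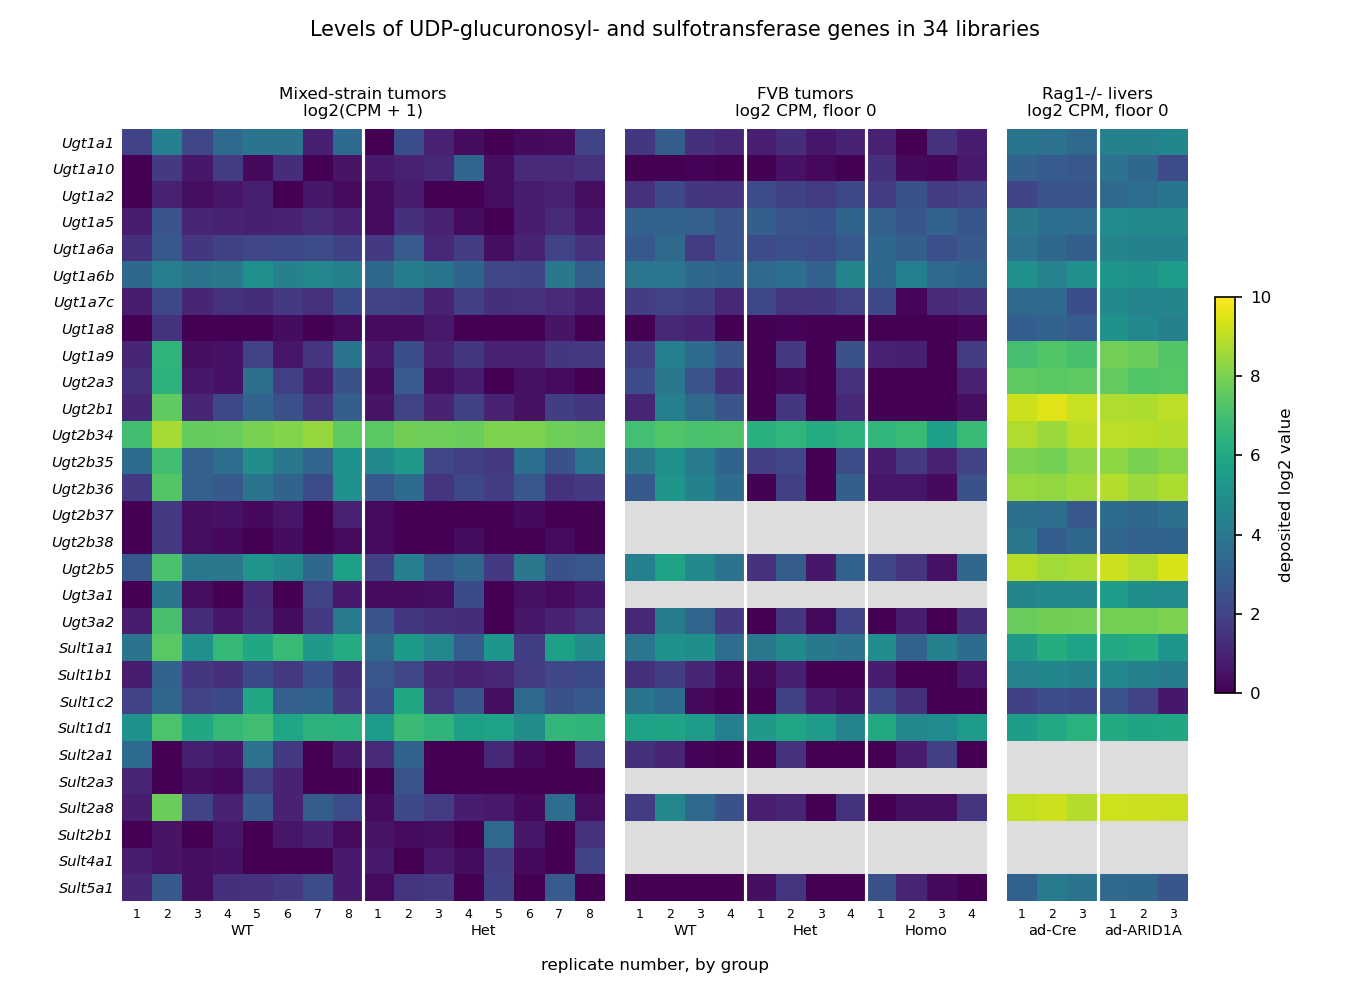
Deposited log2 expression of the 29 members tested in any table (rows) in each of the 34 libraries (columns, grouped by table and group), on a colour scale from 0 to 10, with grey where the table does not hold the gene. Ugt2b1, Ugt2b5, Ugt2b36 and Sult2a8 are bright in the 6 liver libraries and darker in the tumors of every genotype, WT included. Ugt2b34 and Sult1d1 stay bright across the tumor libraries.

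The heat map of all libraries shows the 3 tables side by side, but each was normalized on its own, so tests were run only within a table. A member was called when its Benjamini-Hochberg adjusted p over all genes of the table was under 0.05.

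The livers given ARID1A differed from the control livers in the Ugt1a genes. All 9 measured Ugt1a genes were higher in ad-ARID1A livers, 8 of them with every ad-ARID1A library above every ad-Cre library, and the median difference was 1.03 on the log2 scale. Ugt1a8 and Ugt1a5 rose past the threshold. Among all 25 members 2 were called, in a table in which 0.32% of the genes were called (45 of 14074) and 0.277% were called higher. Groups did not overlap for 10 members that were higher and 1 that was lower, against 13.9% and 3.47% of all genes. Of those 10, 8 were Ugt1a genes, which share exons and may not be independent of each other. At an unadjusted p under 0.05 there were 10 members that were higher and 1 that was lower, against 9.88% and 2.62% of all genes. Over the 25 members 18 were higher, as were 66.3% of all genes, and the median difference was 0.18, against 0.09 over all genes.

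Ugt1a8 (chr1:88087813-88219004) was at 2.98, 3.13 and 2.92 log2 CPM in the 3 ad-Cre livers and at 5.09, 4.68 and 4.35 in the 3 ad-ARID1A livers. The groups lay far apart relative to their spread, with 8.07 ± 0.613 CPM (SD, n = 3) in controls and 26.7 ± 6.89 CPM with ARID1A. The log2 difference was 1.70 ± 0.195 (SE, limma, adjusted p = 0.0132).

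Ugt1a5 (chr1:88166012-88218997) was at 3.98, 3.66 and 3.62 log2 CPM in ad-Cre livers and at 4.85, 4.73 and 4.76 in ad-ARID1A livers. The 3 ad-ARID1A values were close to each other and all above the controls, at 27.5 ± 1.2 against 13.6 ± 1.92 CPM (SD, n = 3). Its log2 difference was 1.03 ± 0.14 (SE, limma, adjusted p = 0.0257). The promoters of Ugt1a8 and Ugt1a5 printed above hold the AhR core, as do 32.4% of all promoters searched. The RefSeq windows of Ugt1a2, Ugt1a6a and Ugt1a7c, described next, do not hold it. Whether the motif bears on these differences was not tested.

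Next by p-value were Ugt1a2, Ugt1a6a and Ugt1a7c, which just missed the threshold. Ugt1a2 was at 2.10, 2.57 and 2.58 log2 CPM in controls and at 3.46, 3.61 and 3.88 with ARID1A, a log2 difference of 1.23 ± 0.213 (SE, limma, adjusted p = 0.0546). Ugt1a6a was at 3.72, 3.39 and 3.03 against 4.56, 4.38 and 4.39, a difference of 1.06 ± 0.186 (adjusted p = 0.0546). Ugt1a7c was at 3.47, 3.43 and 2.4 against 4.74, 4.46 and 4.54, a difference of 1.48 ± 0.266 (adjusted p = 0.0547). In each of the 3 genes the lowest ad-ARID1A library lay above the highest control.

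Ugt1a1, the bilirubin enzyme, was at 3.90, 3.73 and 3.43 log2 CPM in controls and at 4.40, 4.38 and 4.60 with ARID1A, which left no overlap but did not pass (log2 difference 0.77 ± 0.159, limma, adjusted p = 0.0913). Ugt1a9 was at 7.04, 7.27 and 7.09 against 7.88, 7.70 and 7.33, which was a difference of 0.50 (adjusted p = 0.171). Ugt1a6b was at 5.0, 4.42 and 5.06 against 5.30, 5.11 and 5.49 (adjusted p = 0.32), and its count is uncertain because 79.8% of its 50-base stretches occur in other genes. That share was 59.7% for Ugt1a8 and 64.0% for Ugt1a5, so the counts of the called genes are uncertain too. Ugt1a10 alone overlapped, at 3.14, 2.91 and 2.73 against 3.8, 3.35 and 2.31 (adjusted p = 0.822).

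The summed Ugt1a signal was 226 to 245 CPM in the ad-Cre libraries and 341 to 434 CPM in the ad-ARID1A libraries. Ugt1a9 was the highest Ugt1a row in every liver library, at 132 to 154 CPM in controls and 161 to 236 CPM with ARID1A. The lowest Ugt1a row, which was not the same gene in every library, was at 4.29 to 5.94 CPM in controls and at 4.96 to 11 CPM with ARID1A.

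**Figure D2:**
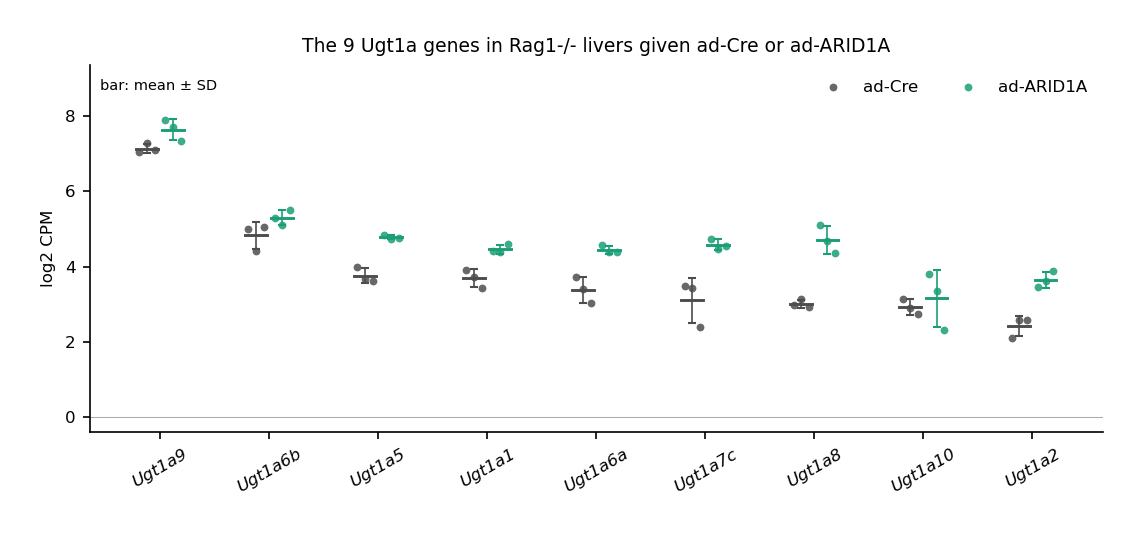
Log2 CPM (vertical axis) of the 9 Ugt1a genes (horizontal axis) in 3 ad-Cre and 3 ad-ARID1A livers, with dots for libraries and the mean ± SD beside them. The ad-ARID1A dots lie above all ad-Cre dots in 8 genes, and Ugt1a10 is the exception.

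Outside the Ugt1a cluster no member was called in the livers. Ugt2b1, a steroid-conjugating enzyme, was at 9.24, 9.50 and 9.17 log2 CPM in controls and at 8.81, 8.78 and 9.01 with ARID1A. It was the 1 member with no overlap in the lower direction (635 ± 78.5 against 468 ± 41.5 CPM, SD, n = 3), with a log2 difference of -0.44 ± 0.108 (SE, limma, adjusted p = 0.152). Of 7 Ugt2b genes 5 were higher and 2 lower, with a median of 0.17 and no call. Ugt3a1 was at 4.54, 4.70 and 4.66 against 5.50, 4.98 and 4.82, without overlap (log2 difference 0.47, adjusted p = 0.304), and Ugt3a2 also separated upward by 0.15. Among the 6 Sult genes 4 were lower and 2 higher, from -0.53 (Sult5a1) to 0.17 (Sult2a8), with no separated group.

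These calls rest on few libraries. Without any single one of the 6 libraries Ugt1a5 was no longer called (adjusted p 0.0744 to 0.181), and Ugt1a8 was called only in the fit without ad-ARID1A replicate 3 (0.0176 to 0.147 over the 6 fits), while the log2 differences lay between 1.5 and 1.88 for Ugt1a8 and between 0.96 and 1.14 for Ugt1a5. Without a variance trend both adjusted p-values were 0.123.

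Other values also moved with the virus. The female-biased liver genes were higher in ad-ARID1A livers in 7 of 8 tested cases, among them Cyp2b9 (log2 difference 3.28, limma, adjusted p = 0.00589) and Cyp2a4 (3.66, adjusted p = 0.0313), and their summed level was 1.54 to 13.3 CPM in controls against 28.8 to 87.2 CPM with ARID1A. The male-biased list summed to 7424 to 11581 CPM against 3692 to 7109 CPM, and Myc was 1.4 lower on the log2 scale (adjusted p = 0.175). Of the 5 sex chromosome genes (Xist and Y-linked genes) 3 were higher and 2 lower (median 0.01), and 0 had an unadjusted p under 0.05 (limma). They summed to 276 to 285 CPM in controls and 278 to 286 CPM with ARID1A. Hepatocyte markers (11 of 12 in the table) were lower in 10 of 11 cases (median -0.23) and summed to 84488 to 91262 CPM against 71887 to 84026 CPM. Stellate markers summed to 252 to 425 against 407 to 453 CPM. Endothelial markers were higher in 9 of 9 cases (median 0.25) and summed to 319 to 368 against 375 to 407 CPM, without overlap. The part of each of these in the Ugt1a result was not tested. In whole tissue, fewer cells of a type and less RNA per cell cannot be told apart.

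In FVB tumors the values of Ugt2b genes, Ugt2a3 and Sult2a8 lay lower with Cre than in WT, but no member passed the threshold. In Het against WT 0 of 23 members were called, in a comparison in which 0.0248% of all genes were called (4 of 16140), and in Homo against WT 0 of 23, against 0.0434% (7 genes). At an unadjusted p under 0.05 there were 10 members in Het, all lower, where 6.07% of all genes were lower at that level, and 11 in Homo, all lower, against 5.64%. Het and Homo were compared with the same 4 WT libraries, so these counts are not independent of each other.

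Ugt2b35 (chr5:87000860-87013275) had the smallest p in both comparisons. It was at 3.96, 5.03, 4.10 and 3.24 log2 CPM in WT, at 1.90, 2.11, 0 and 2.29 in Het and at 0.82, 1.66, 1.01 and 2.04 in Homo, where 0 stands for at or below 1 CPM. Every WT library lay above every tumor with Cre. The log2 difference was -2.51 ± 0.502 in Het (SE, limma, adjusted p = 0.073) and -2.70 in Homo (adjusted p = 0.096).

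Ugt2b5 (chr5:87124960-87140318) and Ugt2b36 (chr5:87065927-87092555) hold AGGTCA close to the start, which the windows of Ugt2b1, Ugt2b34 and Ugt2a3, given below, do not. Those genes without the motif were lower in Het and in Homo as well, and whether the motif bears on the differences was not tested. Ugt2b5 was at 4.30, 5.82, 4.72 and 3.82 in WT, at 1.42, 2.94, 0.64 and 3.12 in Het and at 2.14, 1.56, 0.49 and 3.30 in Homo, and no tumor with Cre reached the lowest WT value. The difference was -2.63 ± 0.646 in Het (limma, adjusted p = 0.105) and -2.79 in Homo (adjusted p = 0.156). Ugt2b36 was at 2.83, 5.21, 4.41 and 3.53 in WT, at 0.06, 1.88, 0 and 3.04 in Het and at 0.60, 0.61, 0.27 and 2.47 in Homo, so that Het replicate 4 overlapped with WT replicate 1. The differences were -2.75 and -3.01 (adjusted p = 0.114 and 0.161). For Ugt2b5, 41.7% of the 50-base stretches of its exons occur in other genes, which leaves its count uncertain.

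Ugt2b1 (chr5:86916638-86926530) was at 1.02, 4.33, 3.44 and 2.63 in WT, at 0, 1.60, 0 and 1.15 in Het and at 0, 0, 0 and 0.38 in Homo. It was separated in Homo only, because a WT library was itself low. The log2 difference was -2.17 ± 0.577 in Het (limma, adjusted p = 0.123) and -2.76 in Homo (adjusted p = 0.122). Where libraries are listed at 0 these folds depend on the floor.

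Ugt2b34 (chr5:86889767-86906937) differed from the other Ugt2b genes by the size of its difference. Its log2 CPM was 7.03, 7.27, 7.11 and 7.21 in WT, 6.35, 6.58, 6.16 and 6.42 in Het and 6.57, 6.75, 5.65 and 6.76 in Homo. The WT values lay close together and above all others, and the difference was -0.78 ± 0.203 in Het (limma, adjusted p = 0.116) and -0.72 in Homo (adjusted p = 0.246). Whether this difference is smaller than those of the other Ugt2b genes was not tested.

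Ugt2a3 (chr5:87324972-87337195), a relative of the Ugt2b enzymes, was at 2.37, 4.01, 2.55 and 1.34 in WT, at 0, 0.25, 0 and 1.42 in Het and at 0, 0, 0 and 0.93 in Homo. Most libraries with Cre were thus at the floor (log2 difference -2.15 ± 0.496 in Het, limma, adjusted p = 0.0975). Sult2a8 (chr7:14410686-14446769), which sulfates bile acids, was at 1.79, 4.63, 3.40 and 2.49 in WT, at 0.84, 1.04, 0 and 1.48 in Het and at 0, 0.39, 0.39 and 1.54 in Homo. All WT values were above the rest (-2.24 ± 0.543 in Het, adjusted p = 0.101, and -2.50 in Homo, adjusted p = 0.137). Ugt1a9 was at 1.90, 4.31, 3.48 and 2.54 in WT, at 0, 1.65, 0 and 2.48 in Het and at 0.92, 0.89, 0 and 1.77 in Homo (-2.02 and -2.16, adjusted p = 0.169 and 0.249). It was the only Ugt1a gene among the 8 members with the smallest p in Het against WT.

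Ugt1a1 was at 1.57, 2.94, 1.36 and 1.11 in WT, at 0.84, 1.31, 0.64 and 1.0 in Het and at 0.92, 0, 1.44 and 0.77 in Homo, with overlap (log2 difference -0.80 in Het and -0.96 in Homo, limma, adjusted p = 0.391 and 0.439). The median difference of the 9 Ugt1a genes was -0.17 in Het and -0.12 in Homo, against -2.51 and -2.76 for the 5 Ugt2b genes and -0.28 and -0.41 for the 7 Sult genes. All 5 Ugt2b genes were lower in both, 3 without overlap in Het and 5 in Homo. Of the 23 members 18 were lower in each comparison, as were 47% and 52.9% of all genes. Over all members the median was -0.78 and -0.72 and over all genes 0.02 and -0.02. In all, 4 members in Het and 8 in Homo were lower without overlap, where 2.47% and 1.98% of all genes were. Ugt1a10 and Sult5a1 were the 2 members higher without overlap in Homo, against 2.09% of all genes, both near the floor (Sult5a1 was listed at 0 in all 4 WT libraries and at 2.47, 1.05, 0.27 and 0.01 in Homo, and Ugt1a10 reached 0.08 in WT and 1.4 in Homo).

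Sult1d1 (chr5:87554645-87569027) was at 5.80, 5.84, 5.50 and 4.31 in WT, at 5.42, 5.93, 5.53 and 4.53 in Het and at 6.08, 4.66, 4.87 and 5.48 in Homo. The 3 groups overlapped fully (log2 difference -0.01 in Het and -0.09 in Homo, limma, adjusted p = 0.996 and 0.967). Ugt1a6b was likewise at 3.92, 3.94, 3.38 and 3.24 in WT, at 3.40, 3.65, 3.15 and 4.55 in Het and at 3.39, 4.30, 3.40 and 3.22 in Homo.

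**Figure D3:**
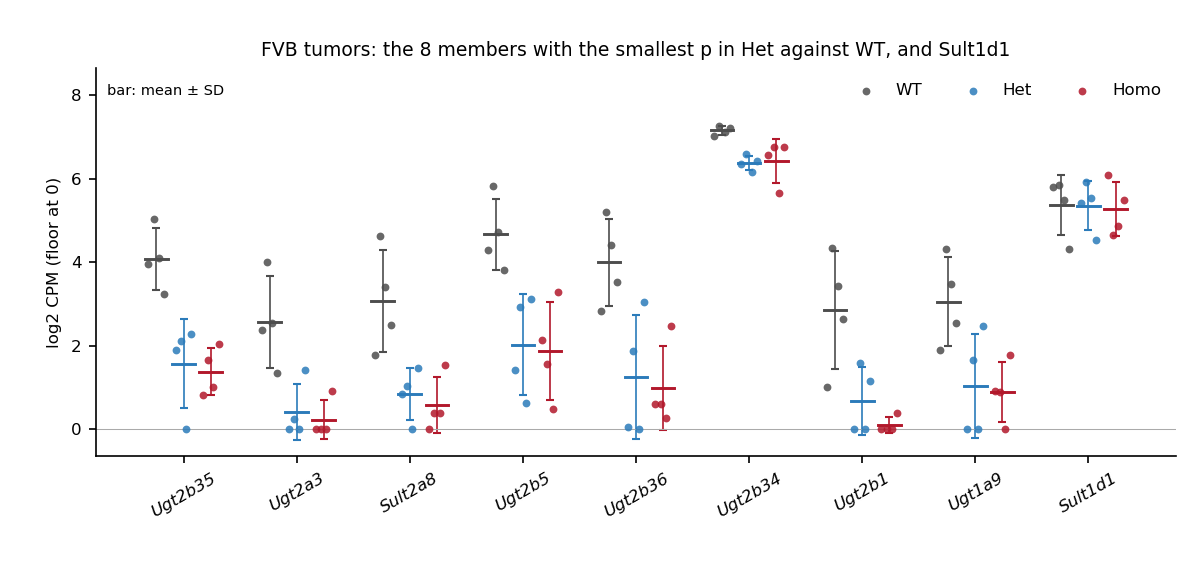
Deposited log2 CPM (vertical axis, 0 for at or below 1 CPM) of 9 members in 4 WT, 4 Het and 4 Homo FVB tumors, with dots for libraries and bars for group means. In the panel of Ugt2b35 all WT dots lie above all others, and in that of Sult1d1 the groups overlap.

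Between Het and Homo tumors no member passed. Of 23 members 0 were called (limma), 0 had an unadjusted p under 0.05, and 0 were separated. In that comparison 0% of all genes were called, 3.86% had an unadjusted p under 0.05 and 2.67% did not overlap. Members lay below 0 in 14 cases, as did 58.1% of all genes. Differences ran from -0.60 (Ugt1a7c) to 0.47 (Sult5a1), with a median of -0.11 and every adjusted p at 1. The other members with the smallest p were Ugt1a10 (0.45), Ugt1a6a (0.46), Ugt2b1 (-0.59), Ugt3a2 (-0.43), Sult2a1 (0.32) and Sult2a8 (-0.26).

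Single libraries set part of these values. WT replicate 2 was the highest WT library for 19 of the 23 members and WT replicate 4 the lowest for 12. Without WT replicate 2 the median difference was -0.40 in Het, against -0.78 with it. Without WT replicate 1, Ugt2b1 was called in both comparisons, and without WT replicate 4, Ugt2a3 and Ugt2b35 were. Without Het replicate 4, Ugt2a3, Ugt2b35 and Ugt2b36 were called in Het against WT. Calls over all genes in these fits are not given here, so these calls are not shown to be particular to the members.

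Marker genes moved in the same tumors. Neutrophil markers (9 of 10 in the table) summed to 1.22 to 108 CPM in WT, 0 to 1.19 in Het and 1.80 to 155 in Homo, and erythroid markers (8 of 8) to 21.2 to 521, 23.3 to 26.2 and 27.8 to 103 CPM. The stellate cell gene Lrat fell by 2.50 on the log2 scale in Het (limma, adjusted p = 0.0234), and the Kupffer cell gene Clec4f was 2.93 lower (adjusted p = 0.0975). The macrophage and Kupffer list as a whole was split in Het, with 4 genes higher and 5 lower (median -0.10). In Homo 3 were higher and 6 lower (median -0.19). Its sums were 366 to 563 CPM in WT, 381 to 609 in Het and 315 to 517 in Homo. Endothelial markers were lower in 8 of 9 cases in Het (median -0.92) and in Homo (median -0.61), with sums of 116 to 269 CPM in WT, 87.8 to 155 in Het and 103 to 166 in Homo. Stellate markers were lower in 7 of 10 cases in Het (median -0.47) and in 10 of 10 in Homo (median -0.91), with sums of 367 to 569, 388 to 541 and 116 to 537 CPM. Male-biased liver genes were lower in 7 of 8 cases in Het and in Homo (median -1.44 in both). Of 4 tested female-biased liver genes, 3 were higher in Het (median 0.15) and 4 in Homo (median 0.38). Hepatocyte markers summed to 7845 to 14203 CPM in WT, 5149 to 11254 in Het and 7943 to 13489 in Homo, so the ranges of WT and Homo overlapped almost fully. Of 11 tested hepatocyte markers, 6 were lower in Het (median -0.10) and 4 in Homo (median 0.23). The part of any of these lists, hepatocyte markers included, in the Ugt2b values was not tested.

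**Figure D4:**
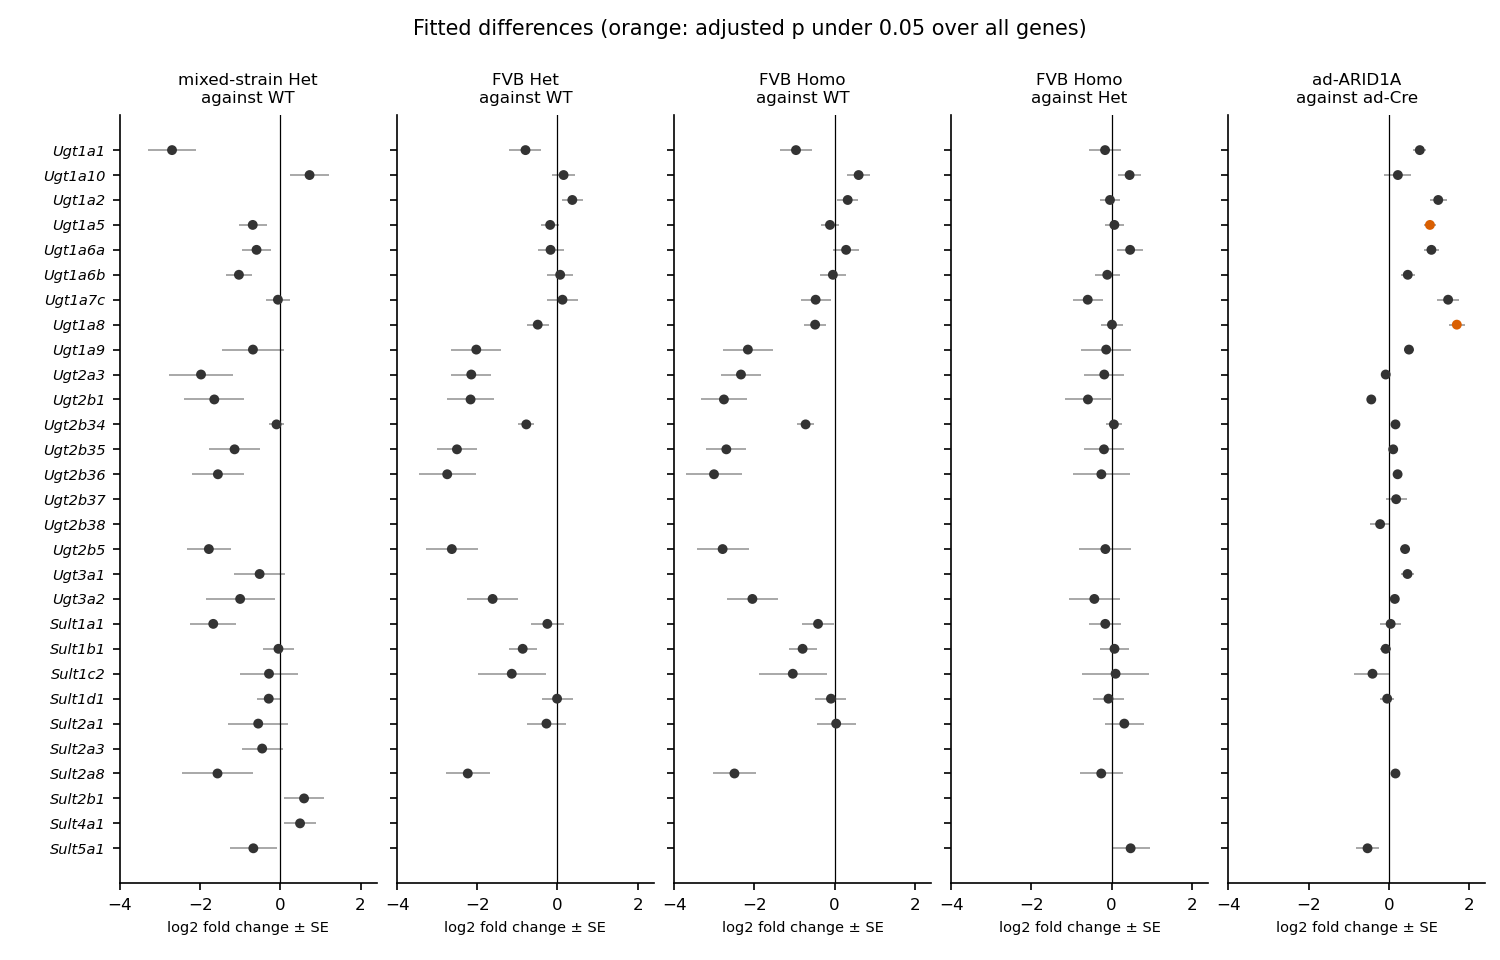
Log2 difference ± SE (horizontal axis) of each tested member (rows) in the 5 comparisons (panels), with orange for an adjusted p under 0.05. Sult5a1 is left out of the panels of FVB Het and FVB Homo against WT, where its difference was 0.48 and 0.95. Orange marks only Ugt1a8 and Ugt1a5 in ad-ARID1A against ad-Cre, and the Ugt2b rows lie left of 0 in the panels of tumors with Cre against WT.

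Mixed-strain Het tumors also had lower values for most members, with more spread between libraries. Of the 40 members 25 passed the filter on low values (mean CPM of at least 0.5). Of these 0 were called with limma, where 0.16% of all genes were called (28 of 17552), and 7 had an unadjusted p under 0.05, all lower, against 7.5% of all genes lower at that level. In the forest plot of all comparisons 22 of the 25 lay below 0, as did 43.9% of all genes. The median over members was -0.67, against 0.05 over all genes. No member was separated, against 0.137% of all genes.

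Ugt1a1 (chr1:88211959-88218997) had the smallest p. Among the 8 WT tumors its deposited log2 value was lowest at 0.88, with a median of 3.46 and a highest value of 4.31, and among the 8 Het tumors it was lowest at 0, with a median of 0.30 and a highest value of 2.41. Most Het tumors were thus near the floor, and only the lowest WT tumors reached into their range. The mean was 9.08 ± 6.21 CPM in WT and 1.13 ± 1.65 CPM in Het (SD, n = 8). The log2 difference was -2.70 ± 0.588 (SE, limma), with an unadjusted p of 0.000221 and an adjusted p of 0.0798. It passed in 5 of 26 alternative settings (adjusted p 0.0207 to 0.175). Its log2 difference in FVB Het tumors was -0.80 (adjusted p = 0.391), and the 2 sets were not compared with a test.

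Ugt2b5 was lowest at 2.74, with a median of 4.38 and a highest value of 7.13, in WT tumors, and at 1.67, 2.75 and 4.28 in Het tumors (-1.78 ± 0.552, SE, limma, adjusted p = 0.16). Ugt1a6b had 3.33, 4.31 and 5.03 in WT as lowest, median and highest values and 2.08, 3.30 and 4.22 in Het (-1.03 ± 0.334, adjusted p = 0.174). In both genes the Het median lay near or below the lowest WT value, with overlap. Sult1a1 (chr7:126672865-126676432), the main phenol sulfotransferase, had 3.83, 6.06 and 7.43 in WT and 1.87, 4.78 and 5.67 in Het (-1.67 ± 0.579, adjusted p = 0.198). It was the only Sult gene among the 8 members with the smallest p here, and in FVB it overlapped between groups (-0.25 in Het and -0.41 in Homo).

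The remaining members of those 8 were Ugt2a3 (-1.98, limma, adjusted p = 0.252), Ugt2b36 (-1.56, 0.258), Ugt2b1 (-1.65, 0.296) and Ugt1a5 (-0.69, 0.345). Ugt2a3 had 0.47, 1.62 and 6.45 as lowest, median and highest values in WT and 0, 0.34 and 2.88 in Het, and Ugt2b36 had 1.71, 3.12 and 7.33 against 1.47, 1.98 and 3.49. Ugt2b1 had 1.09, 2.31 and 7.54 against 0.46, 1.26 and 2.06. The high ends of these WT ranges came from a single tumor, WT replicate 2, which was the highest WT library for 17 of the 25 members and had Ugt2b1 at 7.54 where the next WT tumor had 3.15. Without it the differences were -1.34 for Ugt2a3, -1.02 for Ugt2b36 and -0.94 for Ugt2b1, the median over members was -0.44, and 18 members were lower.

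By group, 6 of 7 tested Ugt1a genes, 5 of 5 Ugt2b genes and 8 of 10 Sult genes were lower in mixed-strain Het tumors, with medians of -0.68, -1.56 and -0.37. The 3 members that were higher were Ugt1a10 (0.73), Sult2b1 (0.59) and Sult4a1 (0.49), with adjusted p-values of 0.459, 0.577 and 0.567. Sult2b1 and Sult4a1 passed the filter on low values only through the Het group (WT means of 0.323 and 0.314 CPM). For Sult2b1 the median was 0.373 CPM in Het and 0.329 CPM in WT, and the highest Het library was at 9.63 CPM. Ugt2b34 had 6.98, 7.83 and 8.70 as lowest, median and highest values in WT and 7.43, 7.80 and 8.01 in Het (-0.10, limma, adjusted p = 0.831). Sult1d1 had 5.14, 6.39 and 7.18 against 4.96, 6.12 and 6.81 (-0.29, adjusted p = 0.654).

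**Figure D5:**
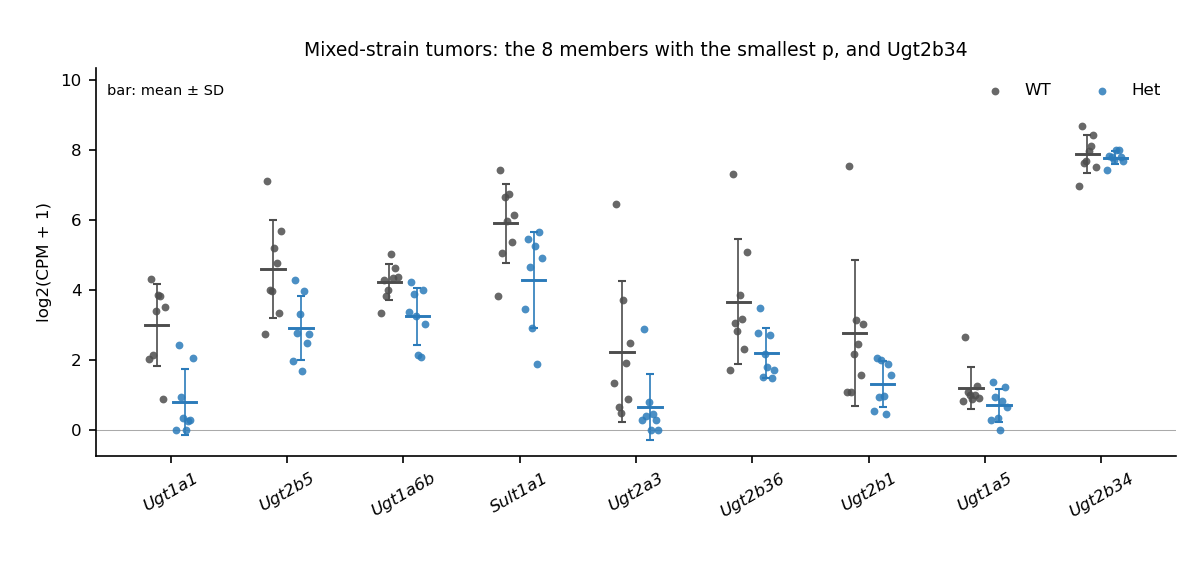
Deposited log2(CPM + 1) (vertical axis) of 9 members in 8 WT and 8 Het mixed-strain tumors, with dots for libraries and bars for group means. WT replicate 2 gives the isolated high dot of Ugt2b1 at 7.54, and the Het dots of Ugt2b34 lie within the WT range.

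In the mixed-strain tumors hepatocyte markers were lower in 11 of 11 cases in Het (median -0.33). They summed to 5614 to 12959 CPM in WT and 2909 to 6701 CPM in Het. Neutrophil markers (10 of 10) summed to 10.6 to 174 and 2.84 to 59.2 CPM, and male-biased liver genes to 119 to 1241 and 26.1 to 131 CPM. Endothelial markers were lower in 7 of 9 cases (median -1.54) and summed to 155 to 472 and 108 to 304 CPM, and stellate markers were lower in 8 of 10 (median -0.66) and summed to 176 to 934 and 197 to 816 CPM. Erythroid markers were lower in 8 of 8 cases (median -0.92). All 9 tested male-biased genes were lower (median -1.63), and so were 6 of 7 tested female-biased liver genes (median -0.70). Clec4f was 3.42 lower (limma, adjusted p = 0.15). Of the 9 macrophage and Kupffer genes, Clec4f among them, 7 were lower and 2 higher (median -0.30). They summed to 474 to 1240 CPM in WT and 402 to 900 CPM in Het. The part of these in the members' values was not tested.

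Levels can be compared between members only per length, and only for genes that share no exon with another. In ad-Cre livers the mean CPM per kilobase of exon was highest for Ugt2b1 (247 ± 30.5, SD, n = 3), Ugt2b5 (234 ± 24.7), Ugt2b36 (173 ± 11.6) and Sult2a8 (163 ± 20.7), followed by Ugt2b34 (101 ± 17.0) and Ugt2a3 (84.8 ± 2.99). Ugt2b1 and Ugt2b5 lay within their spread, as did Ugt2b36 and Sult2a8. In FVB WT tumors the order began with Ugt2b34 (33.1 ± 2.43 CPM per kilobase, SD, n = 4), then Sult1d1 (18.1 ± 7.04), Ugt2b5 (15.7 ± 10.2) and Sult1a1 (15.5 ± 7.44), the last 3 not differing beyond their spread. In FVB Het tumors Ugt2b34 (19.4 ± 2.32) and Sult1d1 (17.6 ± 6.34) were at the head and within their spread. In mixed-strain WT tumors it was Ugt2b34 (58 ± 21.8, n = 8), Sult1a1 (49.4 ± 33.6) and Sult1d1 (35.1 ± 14.4), all within their spread. In ad-ARID1A livers the order was Ugt2b5 (312 ± 51.3, n = 3), Ugt2b36 (202 ± 23.7), Sult2a8 (182 ± 5.7) and Ugt2b1 (182 ± 16.1), the last 3 within their spread.

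At the low end, Ugt2a1 and Ugt2a2, which share nearly all exon bases with each other, were listed at 0 in all 16 mixed-strain libraries. Another 13 members there did not pass the filter either, among them most Sult2a genes.

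The genes that supply, carry and regulate the conjugation reactions were counted by list. In ad-ARID1A livers the carriers were higher in 8 of 9 cases, and Abcc3, which exports glucuronides to the blood, rose from 5.89 ± 0.40 to 7.38 ± 0.33 log2 CPM (SD, n = 3). Its log2 difference was 1.49 ± 0.208 (SE, limma, adjusted p = 0.0265), and it was the only gene of the pathway lists called in any comparison. Slco1a4, an uptake carrier, was 0.90 higher (adjusted p = 0.175). Of 14 receptors and factors 11 were higher, with the smallest p for Nfe2l2 (0.64, adjusted p = 0.0547) and Nr1h4 (0.40, adjusted p = 0.142), and 4 of 4 genes of UDP-glucuronate supply were higher (Entpd5 0.41, adjusted p = 0.142). PAPS supply split into 6 higher and 4 lower, the hydrolases were higher in 3 of 3 cases and the other conjugating enzymes in 8 of 14. By comparison, 66.3% of all genes were higher.

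In tumors with Cre the uptake carriers of conjugates had the lowest values. Slco1b2, a hepatocyte uptake carrier, was 3.02 lower in mixed-strain Het (limma, adjusted p = 0.12), 1.88 lower in FVB Het (0.169) and 2.71 lower in FVB Homo (0.127). Slco1a1, which is also on the male-biased list, was 2.26 lower in FVB Het and 3.02 lower in Homo (adjusted p = 0.17 and 0.156), and Slco1a4 was 2.25 lower in mixed-strain Het (0.252). Of the 9 carriers 8 were lower in mixed-strain Het, 6 in FVB Het and 5 in Homo. For sulfate donors, Papss2, a PAPS synthase, was 1.82 lower in mixed-strain Het (0.157) and Slc26a1, a sulfate carrier, 1.28 lower in FVB Het (0.143) and 1.36 lower in Homo (0.219). The donor lists as a whole were mixed, with 6 of 10 PAPS genes lower in mixed-strain Het, 5 of 9 in FVB Het and 6 of 9 in Homo, and 3 of 4, 2 of 4 and 2 of 4 UDP-glucuronate genes lower.

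Among receptors and factors 13 of 14 were lower in mixed-strain Het tumors (Onecut1 at -0.45 and Cebpa at -0.38 had the smallest p), while in FVB 10 of 14 were higher in Het and in Homo. The other conjugating enzymes were lower in 14 of 14 cases in mixed-strain Het (Gnmt -1.28, adjusted p = 0.0827), 8 of 12 in FVB Het (Baat -1.43, adjusted p = 0.178) and 9 of 12 in Homo (Baat -1.51, adjusted p = 0.271). Hydrolases were lower in 3 of 3, 2 of 3 and 3 of 3 cases. None of these genes was called, and FVB Het and Homo share their WT libraries.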

How the data were processed

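RNA sequencing values of 34 libraries were taken from 3 tables of log2 values that the authors deposited, each normalized on its own. Per the labels' protocols, RNA came from frozen tissue (Trizol, miRNeasy) and libraries from a Nugen kit, and strand was not stated. Trim Galore, HISAT2, SAMtools and featureCounts appear in the submitters' processing notes with GRCm38 (mm10) and no versions. The mixed-strain table is named RPKM by the authors, but its deposited log2 values behave as log2(CPM + 1), each library with about the same total after back-transformation, and were used so. The planned test on RPKM was therefore run on CPM. The deposited log2 CPM of FVB tumors and Rag1-/- livers lists values at or below 1 CPM at 0, which understates differences near the floor.

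Depth was recovered from the step between low values, and no count test was run because high values are too coarsely rounded. Each table was fitted with limma 3.58.1 in R 4.3.3 (lmFit, eBayes with trend), the 3 FVB groups in 1 fit. The mixed-strain table was fitted on log2(CPM + 0.5) for genes whose mean CPM reached 0.5, the others on deposited log2 CPM whose mean reached 0. P-values are two-sided and Benjamini-Hochberg adjusted over all genes, with a threshold of 0.05. The method was tested on simulated data. Labels give neither batch nor sex and do not say that samples came from separate mice, so p-values reflect the spread among these libraries alone, which may be technical. Het and Homo were told apart by the genotype field, because the treatment text describes both alike. The ad-ARID1A columns were matched by number and title, since the labels' descriptions name ad-Cre columns. Alternatives were another scaling, array weights, no trend, Xist as a covariate, a replicate block, other filters and pseudocounts, and leaving out libraries.

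Named were members that passed, the 8 with the smallest p in each comparison, members with the highest levels, and in each pathway list the genes that passed or the 2 with the smallest p. The members and lists were chosen with earlier results of these data known. Gene positions and shared exons came from GENCODE M21 and promoters from RefSeq (GRCm38.p6), of which only the 250 bases before the start were printed.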

Additional observations from a re-analysis of the deposited data

Results flagged for a closer look

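In 57 groups of tested members with 4 to 8 libraries, 9 had a highest or lowest library far from the others by Dixon's test, where chance gives about 1 in 20. In mixed-strain WT tumors, replicate 2 was far above the rest for Ugt2b1 (log2 value 7.54, next 3.15) and for Ugt1a5 (2.65, next 1.26). In mixed-strain Het tumors, replicate 2 was far above the rest for Ugt2a3 (2.88, next 0.8). In FVB Homo tumors, replicate 4 was the high library for Ugt2b36 (log2 CPM 2.47, next 0.61), Ugt2a3 (0.93, the others listed at 0) and Ugt2b1 (0.38, the others listed at 0). Among FVB Het tumors, replicate 3 was low for Ugt2b35 (0, next 1.90), and replicate 2 was the only one above the floor for Sult2a1 (1.43). In FVB WT tumors, replicate 3 was the only one above the floor for Ugt1a10 (0.08). In 4 of these, a single library was above 0, where the distance depends on the floor.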

How the results depend on the processing

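Of the counts and medians recomputed under the alternatives, 158 stayed within 1.5 times or within the spread of the main value and 22 moved. Of the values of single named members, 660 kept direction and side of the threshold, 26 passed where the main value had not, 15 no longer passed, and 3 reversed. The number of called members in ad-ARID1A livers was 2, and became 4 with array weights (Ugt1a2, Ugt1a5, Ugt1a6a and Ugt1a8, 57 genes called in all), 0 without a variance trend (1 gene called in all), 0 with Xist as a covariate (8 genes) and 0 to 1 when 1 library was left out. For mixed-strain Het tumors it was 0, and became 1 (Ugt1a1) with array weights (101 genes in all), 1 with Xist as a covariate (44 genes) and 0 to 1 when 1 library was left out (1 without WT replicate 7 or without Het replicate 2). For FVB Het against WT it was 0, and became 9 with array weights (2287 genes in all) and 0 to 3 when 1 library was left out. For FVB Homo against WT it was 0 to 2 when 1 library was left out. Calls over all genes are not set beside the counts for fits without 1 library. Those counts are therefore not shown to be particular to the members. The median difference of FVB Het members became -0.25 with genes kept from a mean of 2 log2 CPM, where fewer members were tested. The 3 reversals were in FVB Homo against Het: Sult2a8 was 0.0411 with array weights (-0.26 in the main fit), Sult5a1 was -0.0342 without Homo replicate 1 (up to 0.81 over the fits without 1 library) and Sult2a1 -0.0908 without Homo replicate 3 (up to 0.6725). The cause of these moves was not tested, apart from the smaller number of samples or genes where libraries or low genes were left out. Medians with 1 library left out ran from -0.82 to -0.44 (mixed-strain Het), -0.85 to -0.40 (FVB Het), -0.79 to -0.51 (FVB Homo), -0.19 to 0.05 (Homo against Het) and 0.15 to 0.25 (ad-ARID1A). Depth limits members near the floor: 1 member was listed at 0 in every FVB WT library, and 3 and 4 members in every mixed-strain WT and Het library.

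Groups share replicate numbers, which the labels do not tie to a litter, batch or day. Deviations of samples with the same number had correlations from -0.12 to 0.24 in mixed-strain tumors. They ran from -0.02 to 0.28 for FVB Het with WT and from -0.08 to 0.15 for FVB Homo with WT. For Homo with Het they were -0.20 to 0.09, and in livers -0.06 to 0.05. In 2 of 8, 2 of 4, 3 of 4, 1 of 4 and 1 of 3 pairs, in that order, the sample correlated best with its own number. So few pairs cannot settle whether samples of the same number belong together. With the replicate block, called members were 1 in mixed-strain tumors (Ugt1a1, 75 genes in all), 0 in each FVB comparison and 4 in ad-ARID1A livers (Ugt1a5, Ugt1a6a, Ugt1a7c and Ugt1a8, 59 genes in all).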

Other observations

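The livers and the tumors were deposited in separate tables, and tissue, age, virus and Rag1 genotype cannot be told apart between them, so no test was made. Of 22 members found in both tables, 18 had every ad-Cre liver above every FVB WT tumor and 0 had every liver below. The other 4 overlapped (Sult1c2, Sult1d1, Ugt1a2 and Ugt1a6a). The same count was not made over all genes, so it is not shown to be particular to these members. Sult2a8, a bile acid sulfotransferase, was at 8.86 to 9.23 log2 CPM in the livers and 1.79 to 4.63 in the tumors. Ugt2b1 was at 9.17 to 9.50 in the livers and 1.02 to 4.33 in the tumors. Ugt2b34 was closer, at 8.48 to 8.97 in the livers and 7.03 to 7.27 in the tumors.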
